A study of Mus musculus with 12 samples.

Results

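The response of the pancreas of J mice to cerulein is described here across genes, from 6 of the 12 arrays of the series: the 3 titled as cerulein-treated Jackson mice and the 3 titled as Jackson controls. The arrays were chosen by these titles alone, and no measured value entered the choice. All 6 hold pancreas RNA of C57BL6/J mice from Jackson, aged 8 weeks. The cerulein group had chronic pancreatitis induced by cerulein, the control group received saline, and the labels call the 3 arrays of each group biological replicates. The controls are labelled female and no sex is given for the treated mice. The dose of cerulein, the number of injections and the time from the last one were not given in the sources used here. The other 6 arrays hold the same treatments in the C57BL6/NHsd substrain from Harlan, called NHsd below, and enter only through the shared estimate of the spread and 1 comparison at the end.

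The pancreas is mostly exocrine tissue: acinar cells make digestive enzymes and store them in zymogen granules, ducts carry the juice away, and islets release hormones into the blood. Cerulein mimics cholecystokinin, the gut hormone that makes acinar cells secrete. In repeated excess it injures acinar cells, and the injured organ is known for inflammation, loss of acinar tissue, duct-like conversion of acinar cells and scarring by activated stellate cells. The comparison asks which transcripts stood higher or lower in pancreas with this injury than in control pancreas.

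The values are log2 signals of a GeneChip array, so a difference of 1 is a doubling of signal. Values are listed in the order of the replicate numbers, cerulein before saline. A gene is "higher" or "lower", or "rose" or "fell", where limma's adjusted p over all 8505 tested genes was below 0.05. Differences are cerulein minus saline, with the standard error (SE) in brackets. Counts are given in 4 settings, which are the values as deposited, the arrays shifted to equal medians, the deposited values without cerulein replicate 1, and both changes together. A pair of counts gives the higher genes first and the lower genes second. Where all arrays of 1 group lay under log2 4, near the floor of the array, the size is a lower bound taken against log2 4 and written "at least", and where only some did the size is inexact.

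The arrays of both groups differed in more than pancreatic transcripts. The median of the tested genes was log2 6.14, 6.23 and 6.08 after cerulein and 5.66, 5.57 and 5.51 after saline. Hybridization spike-ins, RNA of bacterial and phage genes added in the same amount to each sample, averaged 7.74, 7.54 and 7.40 on the cerulein arrays and 10.01, 9.40 and 9.28 on the saline arrays. The poly-A spike-ins, added before labelling, averaged 8.67, 7.13 and 7.18 against 10.96, 10.19 and 9.90. Every cerulein array thus had the higher median and the lower spike-in signals, by -2.01 and -2.69 for the spike-in kinds. The gap between the 3′ and 5′ probe sets of Gapdh was 0.829, 0.838 and 0.997 against 1.12, 1.44 and 1.21. The exact two-sided permutation test gave each of these 4 measures p = 0.1, the smallest that 3 against 3 arrays allow. The part of these array differences in the gene results was not tested, and with no batch in the labels treatment effects and array handling cannot be told apart. Cerulein replicate 1 correlated less with its own group (mean r 0.951) than replicates 2 and 3 (0.969 and 0.973) or the saline arrays (0.984 to 0.985). Xist was at 9.76 to 11.35 on all 6 arrays while probe sets of Y-linked genes stayed at or below 2.77.

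As deposited, 4069 of the 8505 genes were higher (47.8%) and 647 lower (7.61%) after cerulein, and the median gene differed by 0.47. With equal medians 1777 were higher (20.9%) and 2497 lower (29.4%), and the median gene differed by -0.11. All of those 1777 were among the 4069, 2290 of the 4069 were no longer called and 2 were called lower. All 647 fallen genes stayed lower and 1850 joined them. Without cerulein replicate 1, 4182 genes were higher (49.2%) and 717 lower (8.43%), including 3719 of the 4069 and 567 of the 647. With both changes 1949 were higher (22.9%) and 2834 lower (33.3%). Over all 4 settings 1607 genes were higher each time (18.9%) and 567 lower each time (6.67%), and these are meant below where a change is said to have held in all 4 settings. The share of genes whose arrays did not overlap was 52.2% with cerulein above saline and 9.51% below. As these shares show, a rise was common among the deposited values and a fall was not, whereas with equal medians falls were the more frequent. The counts of every list below are to be read against the shares of all genes in the same setting.

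**Figure D1:**
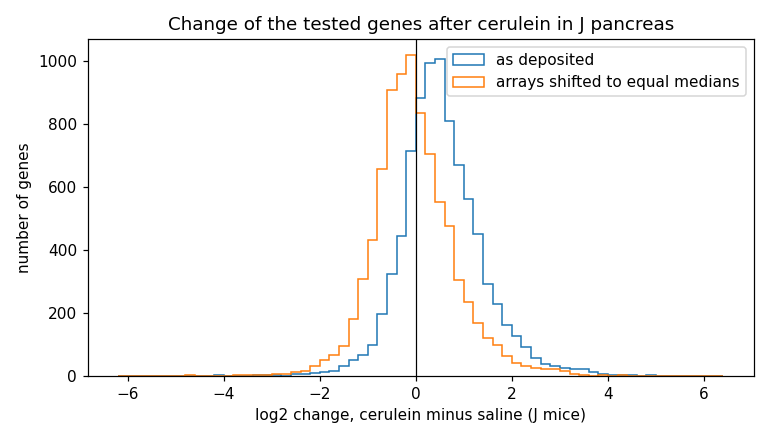
Number of tested genes (y axis) by log2 change, cerulein minus saline, in J mice (x axis), with the deposited values and after the arrays were shifted to equal medians. The median gene lies at 0.47 in the deposited values and at -0.11 with equal medians, and the shape is the same because the shift moves every gene alike.

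The marker genes of acinar cells were detected on every array. The mean of 9 acinar markers lay at 12.4 to 12.7 on cerulein and 13.3 to 13.4 on saline arrays. Macrophage markers (8 genes) ran the other way, at 8.30 to 8.78 against 4.76 to 5.31, and the 6 fibroblast and stellate cell markers lay at 7.78 to 9.47 against 6.36 to 6.71. Markers of duct (5.54 to 5.84 against 4.45 to 4.84) and islet (9.52 to 9.67 against 8.17 to 8.57) were also higher on each cerulein array. Among the duct markers Krt7 (2.15) and Krt19 (1.49) rose, while Sox9 was at 0.07 and Cftr stayed under log2 4 on all 6 arrays. These marker means are from the deposited values, in which the cerulein arrays had the higher medians. All 4 T cell markers stayed under log2 4 on all 6 arrays, as did 3 of 4 mast cell, 3 of 4 hepatocyte, 2 of 3 endothelial, 2 of 4 neutrophil and 3 of 5 B and plasma cell markers. In such whole-tissue RNA, fewer cells of a type and less RNA per cell cannot be told apart.

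Most transcripts of digestive enzymes and granule proteins fell. Of 22 tested genes 17 were lower and 1 higher, with a median change of -0.46 against 0.47 over all genes. With equal medians 21 were lower and none higher, without cerulein replicate 1 15 were lower and 1 higher, and 15 were lower in all 4 settings. With both changes the counts were 0 and 21. Pla2g1b, the pancreatic phospholipase A2, had signals of 11.40, 11.66 and 11.75 after cerulein and 14.11, 14.05 and 13.80 after saline, a change of -2.38 (SE 0.18, adjusted p = 8.92e-07). The amylase gene Amy1 read 9.27, 9.28 and 9.49 against 11.62, 11.48 and 11.48 (-2.18, SE 0.15). Gp2, the main membrane glycoprotein of zymogen granules, read 12.71, 12.59 and 13.06 against 14.71, 14.67 and 14.73 (-1.91, SE 0.14). For these genes the groups were far apart and replicate 1 lay with the other cerulein arrays. Proteases among the brightest probe sets moved less: the trypsinogen gene Prss2 was at 15.01, 15.21 and 15.16 against 15.53, 15.43 and 15.46 (-0.35, SE 0.08), and the procarboxypeptidase gene Cpa1 at 14.74, 15.14 and 15.21 against 15.64, 15.62 and 15.59 (-0.59, SE 0.13), both chosen after their values were seen. Their signals lie close to the highest on these arrays, 16.2 to 16.3. The exception was Prss3, another trypsinogen gene, at 14.501, 14.95 and 15.20 against 13.55, 13.73 and 14.78. Its groups overlapped, and its rise of 0.86 (SE 0.26, adjusted p = 0.0143) was not called with equal medians (0.29, adjusted p = 0.398). Trypsinogen genes are close copies, so probe sets may bind several of them.

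The tissue kallikreins, serine proteases related to trypsin, fell with the enzymes: 4 of 6 tested genes were lower and 0 higher, all 6 were lower with equal medians, and 4 were lower in all 4 settings (0 and 5 without replicate 1 and 0 and 6 with both changes). Klk1b5 read 9.25, 8.98 and 9.40 against 12.30, 12.25 and 12.80 (-3.24, SE 0.26). Klk1b24 read 5.90, 4.63 and 4.58 against 7.74, 7.23 and 8.67 (-2.85, SE 0.44), with cerulein replicate 1 above the other two. Klk1b11 changed by -1.50 (SE 0.33). Kallikrein genes share much of their sequence, and a probe set may report several of them.

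The deepest falls lay outside the enzyme genes. Hamp2, one of the hepcidin genes, whose peptide family controls the export of iron, went from 12.24, 12.20 and 12.19 in saline to 7.59, 6.27 and 6.46 after cerulein (-5.44, SE 0.32, adjusted p = 2.33e-07). Its relative Hamp read 4.50, 3.10 and 3.72 against 6.88, 6.61 and 7.45 (-3.21, SE 0.32) by its brighter probe set, and changed by -0.84 by the other. The size is inexact, as 2 cerulein arrays lay under log2 4, and probe sets of Hamp and Hamp2 may share transcripts. In Hamp2 and the brighter probe set of Hamp, cerulein replicate 1 was the highest of its group and still far below every saline array. Gal encodes the neuropeptide galanin and read 7.49, 6.84 and 7.44 against 11.76, 11.61 and 11.58 (-4.39, SE 0.28). Egf, for epidermal growth factor, read 5.57, 6.15 and 6.34 against 9.06, 9.35 and 8.96 (-3.10, SE 0.22). Itih4, for a plasma protein related to protease inhibitors, was under log2 4 on all cerulein arrays (2.89, 2.74 and 2.71) from 6.79, 6.73 and 6.95, at least 7.09-fold lower. No array of either group reached the other for any of these genes. Gtpbp2, for a GTP-binding protein, changed by -3.11 (SE 0.21) by its brighter probe set and 0.62 by the other, so its direction is not settled. Smim38, for a small membrane protein, changed by -3.69 (SE 0.48), and the uncharacterised transcripts 1810007D17Rik and 1810018F18Rik by -4.18 (SE 0.37) and -2.96 (SE 0.30). Ranbp3l, related to a Ran-binding protein, was at least 5.25-fold lower. All 12 of the largest falls held in all 4 settings.

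**Figure D2:**
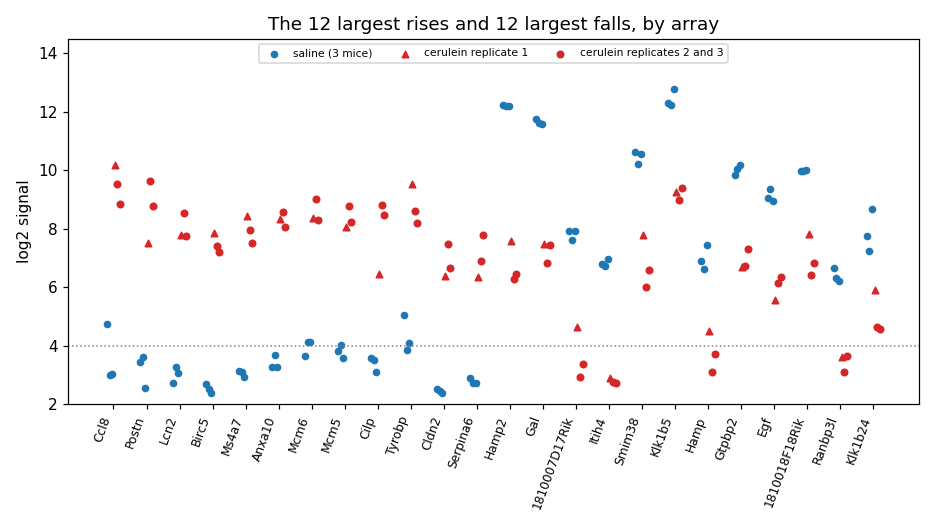
Log2 signal (y axis) of the 12 largest rises and 12 largest falls (x axis) on each of the 6 J arrays, with cerulein replicate 1 as a triangle and the dotted line at log2 4. No gene shown has overlapping groups, and most of the saline points of the risen genes lie at or under log2 4, as for Birc5 with 2.67, 2.51 and 2.39.

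The list of acinar identity genes holds mostly transcription factors, with the receptor gene Cckar and the enzyme gene Gnmt. Of 14 tested genes 2 were higher, 3 lower and 9 not called as deposited, with a median of -0.00. Over all genes 47.8% were higher and 7.61% lower. The counts were 1 and 10 with equal medians, 3 and 3 without replicate 1 and 1 and 8 with both changes. Gnmt, for a methyltransferase abundant in acinar cells, read 8.91, 7.96 and 8.22 against 10.61, 10.40 and 10.33 (-2.08, SE 0.23). Klf15 changed by -1.18 (SE 0.17), and Xbp1, the factor that expands the secretory endoplasmic reticulum, from 12.40, 12.56 and 12.50 to 11.77, 11.66 and 11.83 (-0.73, SE 0.16). These 3 fell in all 4 settings. Rbpj, the partner of Notch, was 1.31 higher (SE 0.23) in all 4, and Mecom was 0.72 higher (SE 0.19) but not with equal medians (0.14, adjusted p = 0.496). The master regulators Ptf1a and Bhlha15, chosen after their values were seen, showed overlapping groups: Ptf1a read 10.75, 10.68 and 10.496 against 10.68, 11.005 and 11.09 (-0.28, SE 0.27), and Bhlha15, for Mist1, read 9.69, 10.05 and 9.99 against 9.95, 9.99 and 9.69 (0.03, SE 0.19). With equal medians Ptf1a (-0.86, adjusted p = 0.0112) and Bhlha15 (-0.54, adjusted p = 0.0262) were called lower. Among 20 genes of secretory granule traffic 6 rose and 4 fell, against 47.8% and 7.61% of all genes. With equal medians 1 rose and 7 fell (5 and 4 without replicate 1 and 1 and 9 with both changes). Tmed11, of the vesicle cargo receptor family, read 9.33, 7.43 and 8.40 against 11.37, 11.11 and 11.09 (-2.80, SE 0.40), and the granule proteins Rab3d (-0.84, SE 0.15) and Rab26 (-0.74, SE 0.19) fell in all 4 settings. The membrane fusion gene Stx4a rose by 1.28 (SE 0.22) in all 4, and Snap23 by 1.03 (SE 0.26) as deposited but not with equal medians (0.45, adjusted p = 0.135).

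Genes for folding in the endoplasmic reticulum and its stress response split. Of 37 tested genes 17 were higher, near the 47.8% of all genes, and 7 lower. The counts were 8 and 14 with equal medians, 17 and 7 without replicate 1 and 10 and 14 with both changes. In all 4 settings 8 were higher and 7 lower. Of the disulphide isomerase genes on the list Pdia4, Pdia3 and Pdia6 rose, Pdia2 fell and P4hb did not pass. Pdia4 read 8.25, 8.87 and 8.67 against 5.48, 5.73 and 5.48 (3.03, SE 0.21), and Pdia3 read 10.47, 11.12 and 10.97 against 8.92, 8.85 and 8.83 (1.99, SE 0.21). Ddit3, the stress factor CHOP, rose from 4.29, 4.26 and 4.40 to 5.80, 5.36 and 5.56 (1.26, SE 0.14). On the falling side were Xbp1, Edem1, for a factor that clears misfolded proteins (-0.65, SE 0.15), and Herpud1, of the same disposal route (-0.74, SE 0.21). The stress response is known to act on the ER stress element, searched on both strands as CCAAT, any 9 bases, then CCACG. It was present in the 250 bases before the start of 10 of 32 genes of the list with a promoter sequence (31.2%), against 0.187% of the 6945 tested genes and 0.13% of all 27025 genes with one. Of the 10 genes with the motif 5 rose, 1 fell and 4 were not called, and of the 22 without it 10 rose, 6 fell and 6 were not called. The promoters of Hspa5, for the chaperone BiP, and Calr, for calreticulin, show how genes with the same element read differently. They are printed on the gene's strand from RefSeq (GRCm38.p6; chr2:34771840-34772089, plus strand, and chr8:84846932-84847181, minus strand), with the motif in capitals:
Hspa5: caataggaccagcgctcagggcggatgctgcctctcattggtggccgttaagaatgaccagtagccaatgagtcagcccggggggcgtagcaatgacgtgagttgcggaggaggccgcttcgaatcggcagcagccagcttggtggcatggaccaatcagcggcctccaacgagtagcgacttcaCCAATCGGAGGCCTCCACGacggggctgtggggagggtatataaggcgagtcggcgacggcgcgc
Calr: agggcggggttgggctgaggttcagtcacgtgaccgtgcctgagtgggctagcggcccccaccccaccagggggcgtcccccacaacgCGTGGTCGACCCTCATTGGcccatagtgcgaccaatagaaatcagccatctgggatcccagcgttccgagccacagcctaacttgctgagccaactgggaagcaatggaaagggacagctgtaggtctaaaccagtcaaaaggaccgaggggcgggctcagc

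Hspa5 was at 11.58, 12.35 and 12.44 after cerulein and 11.88, 11.74 and 11.83 after saline (0.31, SE 0.20, not called), and without cerulein replicate 1 it was 0.58 higher (adjusted p = 0.00323). Calr was at 10.96, 11.86 and 12.04 against 10.40, 10.500 and 10.25 (1.24, SE 0.22) and rose in all 4 settings. Both were lowest on cerulein replicate 1, and both were chosen after their values were seen. A match to these letters is a description and not a measured binding site.

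Genes of amino acid supply went both ways. Of 29 ATF4 targets and aminoacyl-tRNA synthetases, which serve the response to amino acid shortage and protein synthesis, 7 were higher and 8 lower. Over all genes 47.8% were higher and 7.61% lower. The counts were 2 and 17 with equal medians, 9 and 8 without replicate 1 and 2 and 15 with both changes. The hormone gene Fgf21 was under log2 4 on all cerulein arrays (3.63, 3.26 and 3.43) from 4.75, 5.53 and 6.95, at least 3.35-fold lower. Chac1, for an enzyme that degrades glutathione, changed by -1.44 (SE 0.49), with 7.63, 6.95 and 7.15 against 7.60, 8.78 and 9.66, where saline replicate 1 lay within the cerulein range. Ddit4, an inhibitor of mTORC1 signalling, rose by 1.82 (SE 0.26) and Eprs, a tRNA synthetase, by 1.16 (SE 0.23) in all 4 settings, whereas Trib3 (1.34, SE 0.32) was not called with equal medians (0.76, adjusted p = 0.0791). Of 14 amino acid transporters 3 were higher and 4 lower (2 and 8 with equal medians, 4 and 4 without replicate 1 and 3 and 8 with both changes). The glutamine transporter gene Slc38a5 read 7.06, 7.23 and 7.78 against 9.34, 9.23 and 9.19 (-1.90, SE 0.18), while its family member Slc38a4 read 6.41, 6.92 and 6.39 against 4.01, 3.498 and 3.498 (2.91, SE 0.26). Slc36a4 was at least 2.45-fold higher, and Slc6a6, the taurine transporter, rose by 0.86 (SE 0.29) except with equal medians (0.28, adjusted p = 0.416).

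Most duct and metaplasia genes rose. Of 23 tested genes 18 were higher and 3 lower (16 and 3 with equal medians, 18 and 3 without replicate 1 and 17 and 4 with both changes). Their median change was 1.53 against 0.47 over all genes, and 16 were higher and 3 lower in all 4 settings. Cldn2, for a tight junction protein that lets cations through, was under log2 4 on all saline arrays (2.50, 2.44 and 2.39) and at 6.37, 7.48 and 6.67 after cerulein, at least 7.16-fold higher. Cd44, for the receptor of hyaluronan, read 7.44, 8.87 and 8.47 against 4.51, 4.81 and 4.35 (3.70, SE 0.32), and the duct keratin gene Krt19 read 7.22, 7.10 and 6.98 against 5.73, 5.54 and 5.55 (1.49, SE 0.19). Anxa10, of the annexin family, lies outside the list and was at least 19.96-fold higher, from 3.26, 3.69 and 3.26 to 8.32, 8.58 and 8.06. For each of these genes the groups did not overlap. Serpina6, for the corticosteroid carrier of plasma and also outside the list, was at 6.36, 6.90 and 7.78 from 2.90, 2.73 and 2.73, at least 8.08-fold higher. The duct factor gene Sox9, chosen after its values were seen, did not pass, with 5.63, 6.25 and 6.18 against 6.27, 5.82 and 5.75. The 3 that fell were Tff2, for a trefoil peptide of mucus, with 12.27, 11.93 and 12.17 against 13.66, 13.73 and 13.76 (-1.60, SE 0.15), the mucin gene Muc1 (-1.26, SE 0.17), and Tff1, at least 1.43-fold lower. Gkn3, a stomach mucosa gene of the trefoil and mucin list, rose by 1.42 (SE 0.31), but was not called with equal medians and without replicate 1 (0.51, adjusted p = 0.142). That list had 1 higher and 3 lower of 4 (1 and 3 with equal medians, 1 and 3 without replicate 1 and 0 and 3 with both changes).

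Islet genes were higher in 14 of 16 cases and lower in 0, with a median of 1.10. With equal medians 8 were higher, and 8 held in all 4 settings (15 and 0 without replicate 1 and 10 and 0 with both changes). The pancreatic polypeptide gene Ppy read 6.89, 5.77 and 6.01 against 4.21, 4.07 and 3.73 (2.22, SE 0.29), the thyroxine carrier gene Ttr 11.83, 11.64 and 11.40 against 9.55, 10.33 and 9.43 (1.85, SE 0.22), and the hormone-processing chaperone gene Scg5 7.22, 6.13 and 6.15 against 5.25, 4.98 and 4.64 (1.54, SE 0.27). The main islet hormones moved less, and both named here were chosen after their values were seen. The insulin gene Ins2 was 0.60 higher (SE 0.11) as deposited and at 0.02 with equal medians (adjusted p = 0.897), and the glucagon gene Gcg was 1.05 higher (SE 0.21) and at 0.47 (adjusted p = 0.0788).

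Macrophage genes had the largest median rise of the lists with at least 3 tested members, 3.25 against 0.47 over all genes. Of 35 genes on the array 28 were tested, of which 27 were higher and 0 lower, and 25 were higher in all 4 settings. The counts were 25 and 1 with equal medians, 26 and 0 without replicate 1 and 26 and 1 with both changes. Members under log2 4 on all J saline arrays, such as Ms4a7, passed the signal filter through other arrays, which favours rises in these counts. Ms4a7, a membrane protein gene of tissue macrophages, was under log2 4 in all saline arrays (3.14, 3.11 and 2.93) and at 8.42, 7.96 and 7.53 after cerulein, at least 15.7-fold higher. Tyrobp, for the signalling adaptor DAP12, read 9.52, 8.59 and 8.19 against 5.06, 3.85 and 4.10 (4.43, SE 0.43), and Lgals3, for galectin 3, read 8.43, 7.83 and 7.51 against 4.09, 3.36 and 4.07 (4.08, SE 0.30). Cerulein replicate 1 was the highest array for all 3. Chosen after their values were seen, the macrophage surface genes Adgre1 (at least 5.53-fold) and Cd68 (at least 5.05-fold) rose too, and Retnla, of alternative activation, was the member that did not pass (-0.33). Lysosomal enzymes rose in 14 of 20 cases and fell in 2, against 47.8% and 7.61% of all genes. In all 4 settings 11 rose (11 and 4 with equal medians, 15 and 0 without replicate 1 and 12 and 4 with both changes). Cathepsin S (Ctss) read 10.83, 11.63 and 10.99 against 7.98, 6.88 and 7.12 (3.82, SE 0.29), the protease legumain (Lgmn) was at least 7.42-fold higher, and cathepsin H (Ctsh) was 2.82 higher (SE 0.20). The 2 that fell, Man2b1 (-0.79, SE 0.28) and Lamp1 (-0.35, SE 0.13), were not called without cerulein replicate 1 (adjusted p = 0.0517 and 0.0635).

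MHC class II presents antigen to T helper cells. Of 15 genes of the dendritic cell and MHC class II list on the array 6 were tested. All 6 were higher (median 2.10), 5 of them in all 4 settings (5 and 0 with equal medians, 6 and 0 without replicate 1 and 5 and 0 with both changes). The tested genes were those of the class II pathway and Cd83, while dendritic cell genes such as Itgax, Flt3 and Xcr1 did not pass the signal filter. H2-Eb1 read 9.24, 9.45 and 8.91 against 7.28, 6.95 and 6.97 (2.13, SE 0.28), H2-Ab1 was 2.13 higher (SE 0.24), and the activation marker Cd83 was at least 3.17-fold higher. Of 10 tested chemokines 7 were higher and 1 lower (5 and 1 with equal medians, 7 and 1 without replicate 1 and 5 and 1 with both changes). Ccl8, which attracts monocytes, showed the largest rise of all genes, from 4.75, 2.98 and 3.02 to 10.18, 9.53 and 8.86 (5.94, SE 0.49), and its size is inexact because 2 saline arrays lay under log2 4. The macrophage chemokines Ccl6, at 9.21, 8.64 and 8.37 against 5.84, 5.30 and 5.91 (3.06, SE 0.27), and Ccl9, at 8.25, 7.13 and 6.80 against 4.96, 4.66 and 4.66 (2.64, SE 0.32), also rose. Each of the 3 was highest on cerulein replicate 1. Cxcl1, the neutrophil attractant, fell from 5.38, 6.28 and 6.51 to 4.53, 4.23 and 4.57 (-1.61, SE 0.33) in all 4 settings.

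Genes of other leukocytes were mostly near the floor. Of 11 neutrophil genes on the array 2 were tested. S100a8 read 8.01, 4.46 and 7.49 against 4.001, 2.86 and 4.13, so that cerulein replicate 2 stayed close to the saline arrays. Its rise of 2.99 (SE 1.12, adjusted p = 0.038) was not called with equal medians (adjusted p = 0.0816) or without cerulein replicate 1 (adjusted p = 0.133). Of 16 T and NK cell genes on the array 1 was tested, Zap70, which was under log2 4 after cerulein and at least 1.41-fold lower. The mast cell list also had 1 tested gene, Kit, at 0.00. Of 6 B and plasma cell genes 2 rose, against 47.8% of all genes (1 and 0 with equal medians, 2 and 0 without replicate 1 and 1 and 0 with both changes). Sdc1 read 9.22, 9.85 and 9.78 against 7.28, 7.04 and 7.01 (2.51, SE 0.18); epithelial cells express it as well. Ighm, the IgM heavy chain gene, read 8.45, 9.43 and 9.54 against 8.27, 5.60 and 8.32 (1.74, SE 0.60), where saline replicate 2 was the low array and 1 of 3 probe sets was negative (-0.40), and it was not called with equal medians (adjusted p = 0.105).

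Interferon-stimulated genes rose broadly. Of 31 tested genes 28 were higher and 0 lower (median 1.87), and 22 were higher in all 4 settings. The counts were 25 and 0 with equal medians, 29 and 0 without replicate 1 and 22 and 1 with both changes. Rtp4, for a chaperone of receptor transport, read 8.85, 8.15 and 7.72 against 4.54, 4.48 and 4.73 (3.66, SE 0.27), and Ifi27l2a read 10.30, 9.04 and 8.53 against 6.52, 5.49 and 6.02 (3.28, SE 0.42). Usp18, for the protease that removes ISG15 from proteins, was at least 3.02-fold higher, at 6.24, 5.58 and 4.96 from 2.96, 2.65 and 2.65. In all 3 cerulein replicate 1 was the highest array. Over the list, replicate 1 lay above both other cerulein arrays for 20 of 31 genes, for 1 gene by more than 1 log2, and below both for 4. Over all tested genes it was the highest cerulein array for 42.3% and the lowest for 43.9%. The interferon response is known to act through the interferon-stimulated response element, searched here on both strands as GAAA, any 2 bases, then GAAA. It was found before the start of 11 of the 26 tested list members with a promoter sequence (42.3%), against 3.1% of the 6945 tested genes and 3.46% of all 27025. All 11 were higher, as were 12 of the 15 without it. Ifit1 and Oas1a, antiviral effectors chosen after their values were seen, show separate and overlapping copies (chr19:34640639-34640888, plus strand; chr5:120907526-120907775, minus strand; RefSeq, GRCm38.p6), and capitals mark the matches:
Ifit1: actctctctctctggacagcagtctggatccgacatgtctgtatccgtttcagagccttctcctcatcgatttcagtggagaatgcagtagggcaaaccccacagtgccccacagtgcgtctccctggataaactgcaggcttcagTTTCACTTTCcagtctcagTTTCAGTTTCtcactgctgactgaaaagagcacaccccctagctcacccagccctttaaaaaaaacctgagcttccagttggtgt
Oas1a: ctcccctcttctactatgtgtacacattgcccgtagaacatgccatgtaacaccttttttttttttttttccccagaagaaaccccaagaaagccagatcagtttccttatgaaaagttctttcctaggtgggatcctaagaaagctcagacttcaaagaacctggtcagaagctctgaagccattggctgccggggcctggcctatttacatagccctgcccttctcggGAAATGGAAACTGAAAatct

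Ifit1 read 5.20, 4.81 and 4.44 against 2.78, 2.76 and 2.76 and was at least 1.76-fold higher. Oas1a read 5.94, 5.38 and 4.99 against 3.14, 3.33 and 3.75 and was at least 2.70-fold higher. The element of Ifit1 begins 104 bases before the start site and the one of Oas1a 20 bases before it. Both genes were higher in all 4 settings.

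The proteasome, which degrades tagged proteins, rose almost as a whole: 25 of 26 genes were higher and 0 lower (median 1.07), and 13 were higher in all 4 settings (15 and 0 with equal medians, 24 and 0 without replicate 1 and 13 and 1 with both changes). The immunoproteasome subunit genes Psmb8, at 7.81, 6.90 and 6.25 against 4.60, 4.49 and 4.49 (2.46, SE 0.30), and Psmb9, at least 2.61-fold higher, are also on the interferon list. The constitutive subunit gene Psma1 read 9.85, 9.69 and 9.45 against 8.25, 7.82 and 7.60 (1.78, SE 0.19). Replicate 1 was above both other cerulein arrays for 20 of the 26 genes, against 42.3% of all tested genes. None of the list fell in the 2 settings with deposited scaling, and 1 fell with equal medians and replicate 1 left out.

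**Figure D3:**
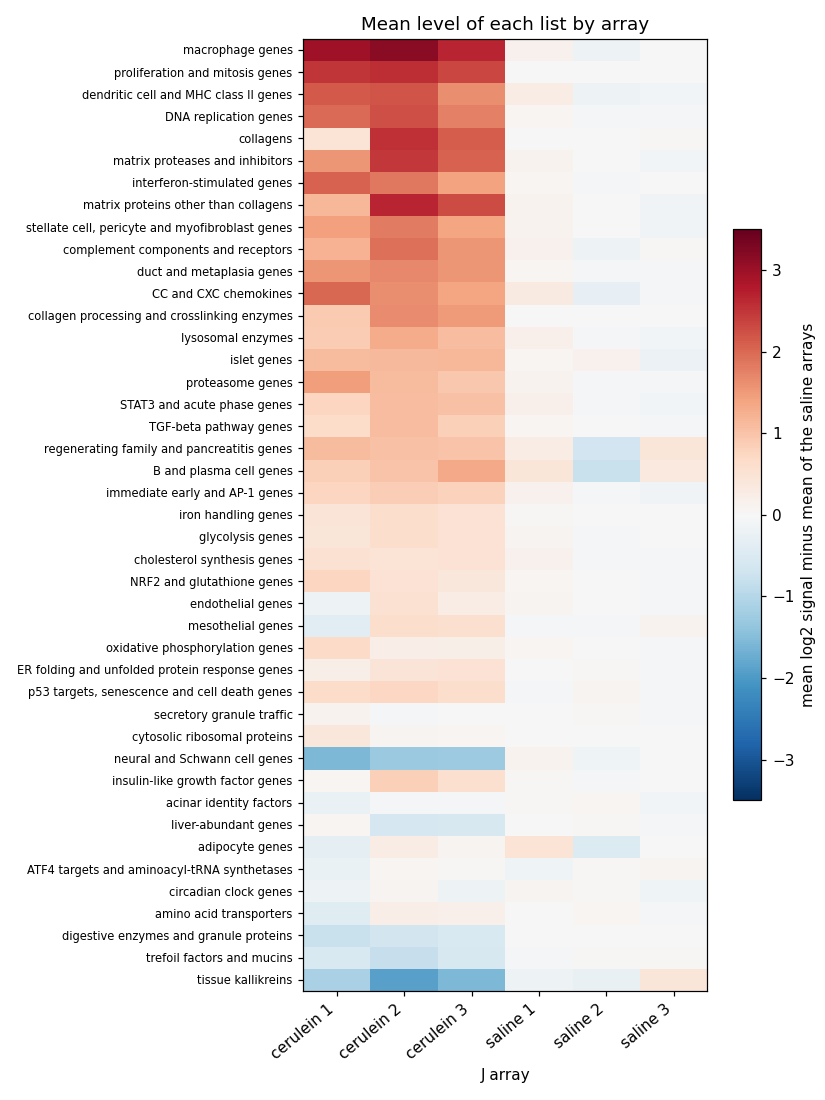
Mean log2 signal of each gene list (rows) on each of the 6 J arrays (columns) minus its mean on the 3 saline arrays, from the deposited values. Macrophage, proliferation and interferon lists are high on all 3 cerulein arrays, while collagens (means 6.38, 8.46 and 8.03 against 5.88 to 5.95) are low on cerulein replicate 1.

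Extracellular matrix separated cerulein replicate 1 from the other two. As deposited, 9 of 13 collagens were higher and 0 lower (median 1.99), 8 with equal medians, all 13 without replicate 1 (median 2.81), and 10 with both changes. Replicate 1 was the lowest cerulein array for all 13, against 43.9% of all tested genes, and by more than 1 log2 for 11 of the 13. Col3a1, of fibrillar collagen III, read 11.27, 12.97 and 12.74 against 9.35, 9.45 and 9.35 (2.95, SE 0.33; 3.47 without replicate 1). Col1a2, of collagen I, read 9.38, 11.99 and 11.40 against 7.98, 8.35 and 8.28 (2.72, SE 0.48; 3.49 without replicate 1), and Col14a1, of a collagen that binds fibrils, 6.95, 8.49 and 8.14 against 5.33, 5.01 and 5.24 (2.67, SE 0.31). On all 3 genes replicate 1 lay between the groups and above every saline array. The microfibril collagen Col6a1 read 5.90 on replicate 1, within the saline range of 5.74 to 6.03, and 8.56 and 8.35 on the other cerulein arrays. Its change of 1.67 (SE 0.52) was not called with equal medians (1.09, adjusted p = 0.0864) and was 2.52 without replicate 1 (adjusted p = 4.86e-06). Col6a2 read 6.33, 9.05 and 8.55 against 6.04, 6.22 and 5.69 (1.99, SE 0.51; 2.81 without replicate 1).

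**Figure D4:**
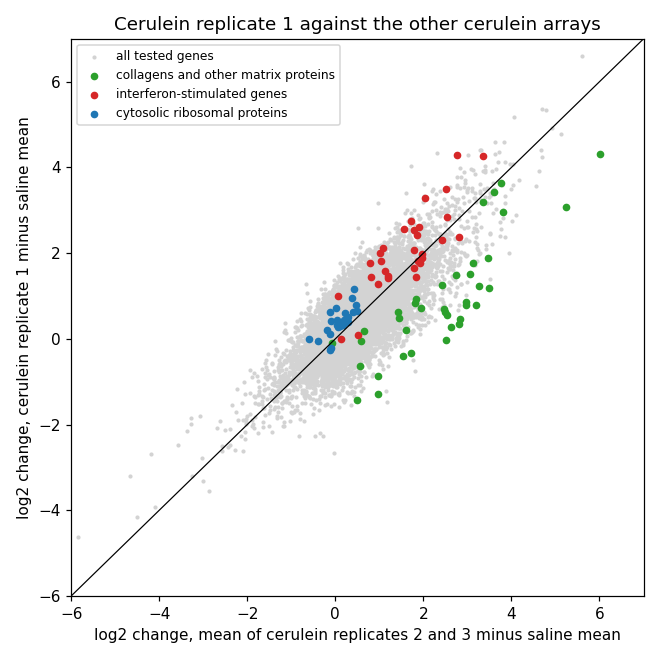
Log2 change of each tested gene on cerulein replicate 1 (y axis) against the mean change on replicates 2 and 3 (x axis), both minus the saline mean, with the line of equality. Collagens and other matrix proteins lie below the line (replicate 1 below both others for 13 of 13 and 23 of 25), most interferon-stimulated genes (20 of 31 above both) and ribosomal protein genes (22 of 25) above it. Over all tested genes replicate 1 was above both others for 42.3% and below both for 43.9%.

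Of the matrix proteins other than collagens, 20 of 25 were higher and 0 lower (median 1.87), 22 without replicate 1 (median 2.46), and 17 in all 4 settings (17 and 1 with equal medians and 21 and 1 with both changes). Replicate 1 was below both other cerulein arrays for 23 of the 25, against 43.9% of all tested genes, and by more than 1 log2 for 14. Periostin (Postn), a matrix protein of activated fibroblasts, read 7.51, 9.62 and 8.79 against 3.44, 3.60 and 2.56, at least 25.0-fold higher. Cilp, a cartilage matrix gene, read 6.46, 8.80 and 8.46 against 3.57, 3.49 and 3.08, at least 15.0-fold higher. Asporin (Aspn), a small leucine-rich proteoglycan, was not among the genes low on replicate 1, at 6.15, 6.72 and 5.84 against 2.64, 2.49 and 2.402, at least 4.70-fold higher. Lumican (Lum), chosen after its values were seen, was at 9.48, 9.80 and 9.56 against 6.15, 6.19 and 5.87, so that this proteoglycan too was about as high on replicate 1 as on the others. Enzymes that process and crosslink collagen were higher in 9 of 13 cases and lower in 0, and 7 were higher in all 4 settings (7 and 1 with equal medians, 11 and 0 without replicate 1 and 8 and 1 with both changes). The lysyl oxidase gene Lox, for the enzyme that crosslinks collagen, was at least 3.71-fold higher, Loxl1 at least 6.45-fold, and Pcolce, an enhancer of procollagen cleavage, read 9.09, 10.23 and 10.10 against 7.42, 7.44 and 7.23 (2.44, SE 0.24).

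Of 18 matrix proteases and inhibitors on the array 10 were tested. Of these 9 were higher and 0 lower, and 6 were higher in all 4 settings (6 and 0 with equal medians, 10 and 0 without replicate 1 and 8 and 0 with both changes). The signal filter favours rises here, as some members, such as Mmp7, were under log2 4 on all saline arrays and passed it only through cerulein arrays. Mmp2, a gelatinase of fibroblasts, read 7.13, 9.42 and 8.74 against 5.56, 4.96 and 4.87 (3.30, SE 0.44; 3.95 without replicate 1). Mmp7, for matrilysin, a protease of injured epithelium, read 7.87, 8.08 and 7.57 against 3.78, 3.89 and 3.70, at least 14.3-fold higher, with replicate 1 between the other two. Cathepsin K (Ctsk), which digests collagen, was at least 5.04-fold higher. Genes of stellate cells, pericytes and myofibroblasts, the cells that lay down the scar, were higher in 12 of 14 cases and lower in 0, and 9 were higher in all 4 settings (10 and 0 with equal medians, 11 and 0 without replicate 1 and 9 and 0 with both changes). The pericyte gene Rgs5 read 7.78, 9.17 and 8.503 against 6.21, 6.05 and 5.82 (2.46, SE 0.36), fibroblast activation protein (Fap) 6.18, 6.93 and 6.43 against 4.76, 4.35 and 3.88 (2.19, SE 0.27), and the matricellular gene Ccn2 was 2.13 higher (SE 0.31). Acta2, for smooth muscle actin and the usual marker of activated stellate cells, was chosen after its values were seen and did not pass, at 6.76, 6.78 and 6.85 against 6.18, 5.74 and 5.69 (0.93, SE 0.40, adjusted p = 0.0662), although its groups did not overlap.

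TGF-beta is the main fibrogenic cytokine family. Of 19 tested genes of its pathway 11 were higher, not far from the 47.8% of all genes, and 2 lower. With equal medians 6 were higher and 5 lower, where 20.9% and 29.4% of all genes were. The counts were 13 and 1 without replicate 1 and 6 and 5 with both changes. The tested receptor genes Tgfbr1, Tgfbr2, Tgfbr3 (1.47, SE 0.35) and Acvr1 (1.27, SE 0.25) rose in all 4 settings. Tgfbr1 read 7.40, 7.87 and 7.49 against 5.41, 5.70 and 4.83 (2.28, SE 0.28), and Tgfbr2 read 7.46, 8.91 and 8.54 against 6.34, 5.97 and 5.84 (2.25, SE 0.29). The target gene Tgfbi was 2.18 higher (SE 0.22). Bmp7, which opposes TGF-beta, fell by 0.60 (SE 0.22), and the corepressor gene Ski changed by -0.74 (SE 0.29), a call that ended without replicate 1 (-0.36, adjusted p = 0.155). Another probe set of Ski stood at 0.60, so its direction is not settled. Among insulin-like growth factor genes 4 of 11 were higher, against 47.8% of all genes, and 1 lower (3 and 6 with equal medians, 5 and 1 without replicate 1 and 4 and 5 with both changes). The binding protein genes Igfbp4 (2.31, SE 0.22), Igfbp7 (2.24, SE 0.26) and Igfbp6 (1.81, SE 0.21) rose in all 4 settings, while Igf1 changed by -0.66 (SE 0.20) by its brightest probe set and by 0.79 (adjusted p = 0.0208) by the mean of its probe sets, so its direction is not settled.

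Of 11 complement components and receptors 10 were higher and 0 lower (median 1.55), 6 of them in all 4 settings (7 and 0 with equal medians, 9 and 0 without replicate 1 and 6 and 1 with both changes). The receptor gene C3ar1 was at least 3.29-fold higher, at 4.84, 6.51 and 5.81 from 2.71, 2.65 and 2.84. The regulator genes Cfi, at 6.92, 6.80 and 6.13 against 4.003, 3.24 and 3.22 (3.13, SE 0.27), and Serping1, at 8.43, 9.99 and 9.66 against 7.54, 7.01 and 7.25 (2.10, SE 0.31), rose as well. STAT3 targets and acute phase genes were higher in 6 of 12 cases, near the 47.8% of all genes, and lower in 2 (5 and 5 with equal medians, 5 and 2 without replicate 1 and 5 and 5 with both changes). Lcn2, for the siderophore-binding lipocalin 2, was at least 16.3-fold higher, at 7.80, 8.53 and 7.74 from 2.72, 3.26 and 3.05. Cp, for the ferroxidase ceruloplasmin, read 7.82, 9.90 and 9.61 against 7.02, 6.87 and 6.49 (2.32, SE 0.41) and the oncostatin M receptor gene Osmr 5.14, 6.55 and 6.16 against 4.35, 4.40 and 3.67 (1.81, SE 0.33), both with replicate 1 the lowest cerulein array. Il6ra, the interleukin 6 receptor, changed by -0.69 (SE 0.23) and was not called without replicate 1 (adjusted p = 0.078), and Saa2 was at least 1.02-fold lower.

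Regenerating family and pancreatitis genes, secreted lectins and stress genes known to respond to pancreatic injury, were higher in 4 of 9 cases, near the 47.8% of all genes, and lower in 0 (4 and 3 with equal medians, 4 and 0 without replicate 1 and 3 and 3 with both changes). Reg3g read 12.01, 11.79 and 11.75 against 10.08, 6.36 and 10.12 (3.00, SE 0.83), and Reg3a 12.91, 12.66 and 12.52 against 10.42, 9.18 and 11.44 (2.35, SE 0.43). Saline replicate 2 was the low array in both, so the sizes rest partly on it. Tnfrsf12a, the receptor of the cytokine TWEAK, was 1.96 higher (SE 0.32).

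Most cell cycle genes rose. Of 32 proliferation and mitosis genes on the array 23 were tested. Of these 21 were higher and 0 lower (median 2.91), 18 in all 4 settings (18 and 1 with equal medians, 21 and 0 without replicate 1 and 18 and 1 with both changes). Some, such as the 3 named next, were under log2 4 on all J saline arrays. They passed the signal filter through other arrays, so the count and the median are partly set by the filter. Birc5, for the mitotic protein survivin, was at 7.87, 7.40 and 7.22 from 2.67, 2.51 and 2.39, at least 11.3-fold higher. Ube2c, for a ubiquitin carrier of mitotic exit, was at least 11.2-fold higher at 7.69, 7.45 and 7.30 from 3.88, 3.94 and 3.37, and Top2a, for topoisomerase II alpha, at least 4.54-fold. Of 30 DNA replication genes 27 were higher and 1 lower (median 2.08), and 25 and 1 in all 4 settings (25 and 1 with equal medians, 27 and 1 without replicate 1 and 25 and 1 with both changes). The helicase subunit genes led: Mcm6 read 8.37, 9.02 and 8.29 against 3.65, 4.13 and 4.13 (4.59, SE 0.24), Mcm5 read 8.05, 8.79 and 8.22 against 3.83, 4.01 and 3.56 (4.55, SE 0.29), and Mcm7 read 8.29, 8.91 and 8.21 against 4.89, 5.29 and 5.17 (3.36, SE 0.25). Here cerulein replicate 1 stood with replicate 3, and every cerulein array lay far above every saline array. Orc1, of the origin recognition complex, fell, from 3.33, 3.62 and 4.12 to 3.06, 2.80 and 3.33 (-0.63, SE 0.22), values near the floor. E2F factors, which switch on replication genes, are known to bind TTTGGCGC and TTTCCCGC (8 bases, both strands searched). Either was found before the start of 4 of 26 list members with a promoter sequence (15.4%), Cdc6, Mcm5, Mcm6 and Mcm7, against 2.82% of the 6945 tested genes and 1.51% of all 27025. All 4 rose, as did 19 of the 22 without a match, where 1 fell and 2 were not called. The promoters of the 2 most risen genes are shown with the matches in capitals (chr8:75109259-75109508, plus strand; chr1:128359706-128359955, minus strand; RefSeq, GRCm38.p6):
Mcm5: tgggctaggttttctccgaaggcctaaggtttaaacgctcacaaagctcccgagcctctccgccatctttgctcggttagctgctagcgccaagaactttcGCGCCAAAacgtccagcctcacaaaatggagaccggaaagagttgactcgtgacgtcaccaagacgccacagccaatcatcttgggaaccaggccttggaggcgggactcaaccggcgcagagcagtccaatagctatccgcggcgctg
Mcm6: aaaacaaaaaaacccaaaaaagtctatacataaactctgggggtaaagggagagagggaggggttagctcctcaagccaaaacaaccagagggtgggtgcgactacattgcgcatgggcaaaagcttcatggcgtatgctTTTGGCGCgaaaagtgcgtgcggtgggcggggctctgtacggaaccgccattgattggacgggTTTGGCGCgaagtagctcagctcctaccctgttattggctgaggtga

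Genes of the p53 response, senescence and cell death were higher in 7 of 15 cases, near the 47.8% of all genes, and lower in 0 (5 and 7 with equal medians, 7 and 0 without replicate 1 and 5 and 7 with both changes). The cell cycle inhibitor gene Cdkn1a, for p21, read 8.07, 8.56 and 8.29 against 5.99, 6.19 and 6.39 (2.12, SE 0.38), and the p53 targets Trp53inp1 (2.16, SE 0.21) and Gadd45a (at least 2.81-fold) rose too, all in all 4 settings. Immediate early and AP-1 genes, which respond within a short time to a stimulus, were higher in 9 of 14 cases, against 47.8% of all genes, and lower in 0 (5 and 3 with equal medians, 8 and 0 without replicate 1 and 5 and 3 with both changes). Egr1 read 6.26, 7.11 and 7.07 against 5.21, 4.43 and 3.85 (2.31, SE 0.33), Ier3 was at least 2.38-fold higher, and Atf3, another stress factor, was 1.64 higher (SE 0.30) but not called with equal medians and without replicate 1 (0.90, adjusted p = 0.0545).

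For the abundant housekeeping groups the direction was set by the scaling. Of 25 cytosolic ribosomal protein genes 9 were higher and 0 lower as deposited, against 47.8% and 7.61% of all genes. The counts were 0 and 16 with equal medians, 4 and 2 without replicate 1, and 0 and 19 with both changes, so that none held in all 4 settings. Rplp2 read 14.28, 14.05 and 13.88 against 13.43, 13.56 and 13.51 (0.57, SE 0.12), and -0.01 with equal medians. Rpl22 (0.67, SE 0.21, with another probe set at -0.19) and Rps18 (0.56, SE 0.18) likewise ended at 0.09 and -0.01. Replicate 1 was the highest cerulein array for 22 of the 25 genes, against 42.3% of all tested genes. Of 37 oxidative phosphorylation genes 16 were higher, near the 47.8% of all genes, and 0 lower (2 and 14 with equal medians, 14 and 3 without replicate 1 and 1 and 21 with both changes), and replicate 1 was highest for 32. The cytochrome c gene Cycs read 12.18, 11.52 and 11.54 against 10.77, 10.81 and 10.51 (1.05, SE 0.17) and was not called with both changes (0.25, adjusted p = 0.0695), Cox8a was 1.08 higher (SE 0.21) except with equal medians (0.51, adjusted p = 0.0539), and Ndufa4 (0.99, SE 0.14) was the only member of the list higher in all 4 settings.

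Of 16 glycolysis genes 8 were higher, near the 47.8% of all genes, and 1 lower (2 and 4 with equal medians, 11 and 1 without replicate 1 and 2 and 4 with both changes). Ldha, which makes lactate, read 9.32, 9.37 and 9.35 against 7.96, 7.57 and 7.77 (1.59, SE 0.16), and Aldoc was at least 2.61-fold higher, both in all 4 settings. Its relative Aldoa changed by -0.35 (SE 0.13; 1 of its 5 probe sets was positive, at 0.10), and Ldhb, 0.94 higher (SE 0.15), was not called with equal medians (adjusted p = 0.0763). Among 13 cholesterol synthesis genes 6 rose, near the 47.8% of all genes, and 2 fell (3 and 4 with equal medians, 6 and 2 without replicate 1 and 3 and 4 with both changes). Called members included Idi1 at least 2.99-fold and Msmo1 at least 2.55-fold higher, Ebp 1.06 higher (SE 0.17), and the feedback sensor gene Insig1 at -0.69 (SE 0.20). Lss changed by -0.76 (SE 0.28) and was not called without replicate 1 (adjusted p = 0.106), and its other probe set stood at 0.12. Of 28 NRF2 and glutathione genes 14 rose and 4 fell, the rises near the 47.8% of all genes (8 and 10 with equal medians, 12 and 4 without replicate 1 and 6 and 13 with both changes). Nfe2l2, for the oxidative stress factor NRF2 itself, read 7.32, 7.89 and 7.69 against 5.56, 5.83 and 5.51 (2.00, SE 0.17). The glutathione enzymes Gpx3 (2.61, SE 0.33) and Mgst1 (2.19, SE 0.25) were also higher in all 4 settings, whereas Gclm (-0.62, SE 0.22, with its other probe set at 0.33), Prdx4 (-0.55, SE 0.14) and Gstm2 (-0.55, SE 0.14) were lower in all 4.

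Iron handling genes were higher in 8 of 14 cases, not far from the 47.8% of all genes, and lower in 2, both hepcidins. In all 4 settings 6 were higher and 2 lower (6 and 3 with equal medians, 9 and 2 without replicate 1 and 7 and 3 with both changes). The iron exporter gene Slc40a1, for ferroportin, read 7.04, 7.24 and 6.86 against 5.31, 4.71 and 4.54 (2.19, SE 0.33), and the transferrin receptor gene Tfrc read 7.14, 7.38 and 7.17 against 5.61, 5.84 and 5.92 (1.44, SE 0.20). Both were chosen after their values were seen. Lcn2 and Cp, described above, are on this list too.

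Few genes of the clock and adipose lists were called as deposited. Of 11 circadian clock genes 1 was higher and 2 lower (0 and 6 with equal medians, 1 and 2 without replicate 1 and 0 and 6 with both changes). Clock rose by 0.82 (SE 0.26; not called with equal medians, adjusted p = 0.391), and the output genes Dbp, at 6.89, 6.70 and 6.10 against 7.69, 7.58 and 8.13 (-1.24, SE 0.22), and Tef (-0.92, SE 0.24) fell in all 4 settings. The hour of sampling was not given in the sources used here. Of 14 endothelial genes 7 rose, near the 47.8% of all genes, and 2 fell (1 and 6 with equal medians, 7 and 1 without replicate 1 and 2 and 6 with both changes). Aplnr, the apelin receptor, rose by 1.30 (SE 0.27) by its brighter probe set, with the other at -0.32, and Flt1, a receptor of VEGF, fell from 4.52, 5.26 and 5.10 to 3.09, 4.21 and 4.11 (-1.16, SE 0.32), both in all 4 settings. Vwf (0.97, SE 0.32) was not called with equal medians (adjusted p = 0.317), and Vegfa (-0.55, SE 0.22) was not called without replicate 1 (adjusted p = 0.176). The lipase gene Lpl was the only one of 9 adipocyte genes called, 0.998 higher (SE 0.39, but 0.42 and adjusted p = 0.335 with equal medians). The counts of that list were 0 and 4 with equal medians, 1 and 0 without replicate 1 and 1 and 3 with both changes. Of 6 mesothelial genes Krt19 rose and Upk1b, for a uroplakin, changed by -1.42 (SE 0.25). The counts of 1 and 1 as deposited became 1 and 1 with equal medians, 4 and 1 without replicate 1 and 2 and 1 with both changes, and the median went from 0.41 to 0.81 without replicate 1. The 2 tested erythroid genes and 2 of the 3 tested neural genes did not pass.

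**Figure D5:**
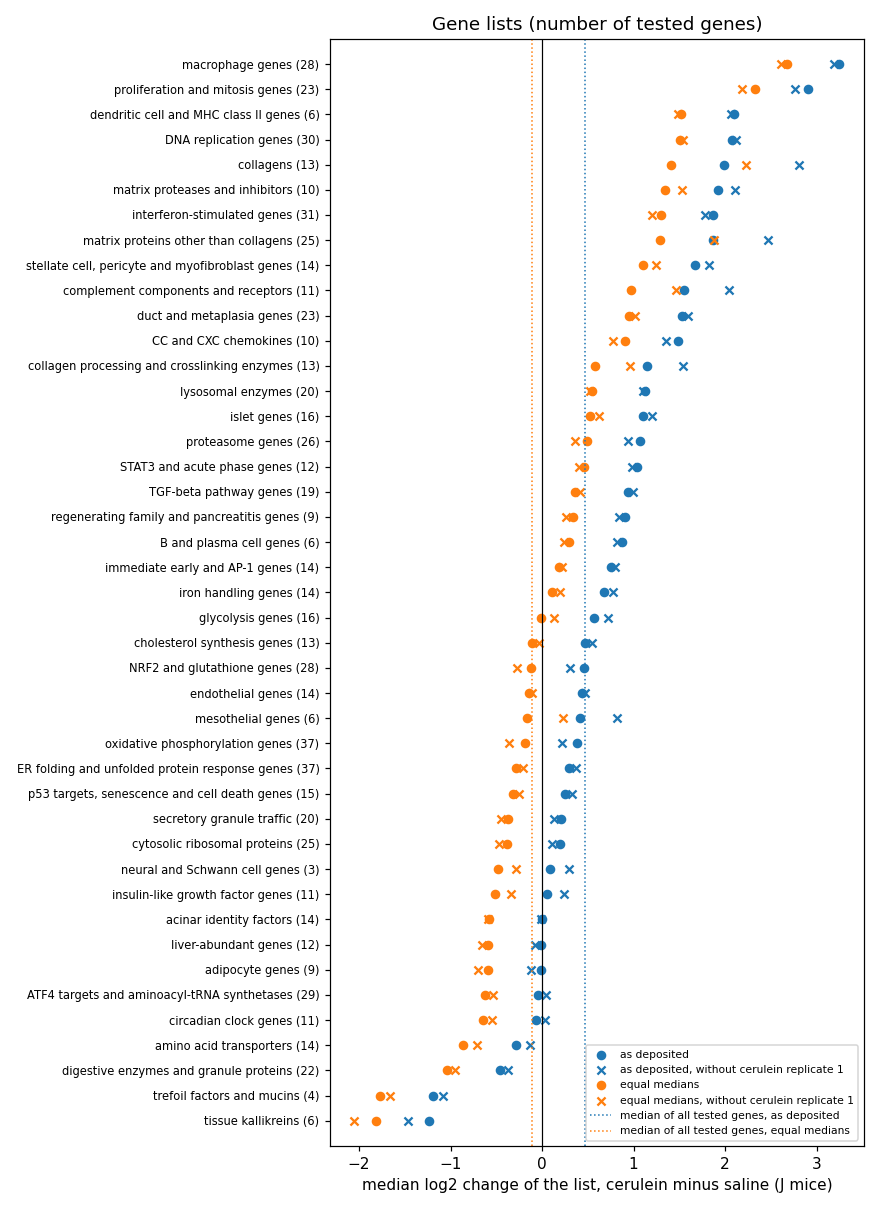
Median log2 change, cerulein minus saline (x axis), of each gene list with at least 3 tested genes (y axis), in the 4 settings, with dotted lines at the median of all tested genes. Macrophage genes lie at 3.25 as deposited and 2.67 with equal medians, the ribosomal list at 0.19 and -0.38, and the collagens move from 1.99 to 2.81 when cerulein replicate 1 is left out.

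Cerulein replicate 1 also stood above the others for genes abundant in liver. It lay more than 1 log2 above both other cerulein arrays for 205 genes and more than 1 below both for 305, where each of the other 5 arrays did so for at most 24 and 19 genes of its own group. Fabp1, the liver fatty acid binding protein, read 7.42, 5.01 and 5.23 against 2.82, 3.58 and 3.79, and albumin (Alb) read 6.75, 4.45 and 4.62 against 3.54, 3.56 and 3.60. Mup3, a major urinary protein gene, read 5.56, 3.47 and 3.51 against 3.39, 2.74 and 2.82. Of the 12 tested liver-abundant genes 10 were highest on replicate 1 among the cerulein arrays, 4 of them by more than 1 log2. The share over all tested genes was 42.3%. The 10 include Hamp2, Hamp and Itih4, which fell, so that replicate 1 was above the other cerulein arrays but below every saline array. Hamp2 is 1 of the 4, at 1.13 above. They also include Ttr, which is on the islet list too. The hepatocyte markers Apoa1, Ahsg and Fgb stayed under log2 4 on all 6 arrays, and the part of liver RNA in these values was not tested. As a list the liver-abundant genes rose in 5 of 12 cases, near the 47.8% of all genes, and fell in 4, against 7.61% (4 and 5 with equal medians, 5 and 4 without replicate 1 and 4 and 5 with both changes). Those that fell were the hepcidins and Itih4 above and Vtn. Ambp, for a plasma protein precursor, read 9.54, 9.98 and 9.50 against 6.45, 5.98 and 5.42 (3.73, SE 0.27), with replicate 1 between the other two.

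Besides matrix genes, ND5, Malat1 and Meg3 were picked as genes farthest below on cerulein replicate 1. The mitochondrial transcript ND5 read 9.55, 12.30 and 12.08 against 12.27, 12.38 and 12.03, and the nuclear RNAs Malat1 6.72, 9.40 and 9.21 against 7.38, 7.36 and 7.72 and Meg3 5.77, 8.84 and 8.01 against 6.995, 7.45 and 7.30. None of the 3 was called as deposited (adjusted p = 0.19, 0.159 and 0.682). Without replicate 1 Malat1 was 1.82 higher (adjusted p = 0.000506) and Meg3 1.18 higher (adjusted p = 0.00611), while ND5 was at -0.03. Xist read 9.76, 11.35 and 11.15 against 9.79, 10.34 and 10.13, so that replicate 1 was close to the lowest saline array and replicates 2 and 3 lay above all saline arrays. The 3′ minus 5′ gap of replicate 1 was 0.829 for Gapdh, against 0.838 and 0.997 on the other cerulein arrays, and 1.73 for actin, against 1.70 and 1.81, and the part of RNA quality in these genes was not tested. Further genes set apart by this array were the opposite-strand transcript Rap1gapos, at 5.57, 3.54 and 3.68 against 4.87, 3.98 and 3.9996, and Enho, for the peptide adropin, at 7.16, 5.45 and 5.45 against 6.84, 6.03 and 5.42, neither of them called.

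In NHsd mice 4139 genes were higher (48.7%) and 561 lower (6.6%) after cerulein. The difference of the cerulein effect between J and NHsd was called for 1 gene of 8505 (0.0118%), and 598 genes had an unadjusted p below 0.05. That gene was Mmp7. It read 7.87, 8.08 and 7.57 after cerulein in J and 5.56, 6.22 and 5.55 in NHsd, from 3.78, 3.89 and 3.70 and 3.89, 3.89 and 3.70 after saline. Its effect was 2.10 larger in J (SE 0.28, adjusted p = 0.0492). The call ended in each of the other 3 settings, where 0 genes were called by limma, with 688 at an unadjusted p below 0.05 with equal medians, 485 without cerulein replicate 1 and 637 with both changes. Every saline value lay under log2 4, and several of them are identical between arrays, so the effect sizes are inexact while the cerulein arrays of the substrains do not overlap. No other gene passed this test, which does not show that the effects are alike.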

How the data were processed

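Pancreas RNA (100 ng per sample, per the labels' protocols) was measured on 12 arrays in 4 groups of 3. The authors deposited log2 signals of 45101 probe sets, made with GCRMA and Partek per the submitters' processing notes. The deposited log2 values were used without further normalization, or shifted to equal medians as the second setting. Probe sets above log2 4 on at least 3 of the 12 arrays and with 1 gene symbol were kept, and the probe set with the highest mean stood for each gene, which left 8505 genes. Of the probe sets 34958 had 1 symbol, 932 several and 9211 none, and the latter were not used. limma 3.58.1 in R 4.3.3 fitted the means of all 4 groups with an intensity trend, and p-values were adjusted by Benjamini-Hochberg over all 8505 genes. On simulated data with 8305 of the 8505 genes unchanged, 13.4% of 1.5-fold, 74.6% of 2-fold and 100% of 4-fold changes were recovered. Far more genes were called in the real data, so these rates do not give the power of this comparison. Precision is limited by 3 arrays a group; p-values measure only the spread between these samples, which may be technical.

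The text names the 12 largest rises and the 12 largest falls whose arrays do not overlap, up to 3 called members of each of 47 lists with the largest change and up to 3 that went against most of their list, the 5 genes farthest above and the 5 farthest below on cerulein replicate 1, and genes called between J and NHsd. Retnla, Kit, Krt7, Vtn, Cdc6, Tgfbr3, Acvr1, Pdia6, Pdia2 and P4hb fall outside this rule and were named after their values were seen. The members, lists and motifs were chosen with earlier results of these data known. Motifs were searched in the 250 bases before RefSeq start sites. Alternatives were quantile normalization, other filters, no trend, robust moderation, the mean of probe sets, the J arrays alone, a replicate block and leaving out each array.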

Additional observations from a re-analysis of the deposited data

Results flagged for a closer look

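The effect of cerulein on Mmp7 differed between the substrains by the test of the difference itself. It was 2.10 larger on the log2 scale in J than in NHsd mice (limma, SE 0.28, adjusted p = 0.0492), and all 3 J cerulein arrays lay above all 3 NHsd cerulein arrays. Its saline values were under log2 4 on all 6 saline arrays. The call ended with equal medians, with equal medians and without cerulein replicate 1, with the filter at log2 6 and in 5 of 6 fits that left out 1 J array, where 0 genes were called. Of those 6 fits, the one without cerulein replicate 3 called 2 genes.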

How the results depend on the processing

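As deposited 4069 genes were higher and 647 lower. With equal medians these counts were 1777 and 2497, with equal medians and without cerulein replicate 1 they were 1949 and 2834, with quantile normalization 1852 and 2325, and with a filter at log2 6, which tests fewer genes, 2463 and 427. Leaving out each array in turn gave 3369 to 4182 higher and 517 to 717 lower. Deviations from the group mean correlated at 0.04, 0.13 and -0.07 between cerulein and saline arrays of the same replicate number. Between arrays of different numbers the correlations were -0.17 to 0.16. With 3 arrays a group these values cannot decide whether the numbers pair the samples. With the replicate block 4086 genes were higher, 635 lower and 1 differed between J and NHsd. That difference, called for 1 gene, was called for 0 with equal medians (688 with an unadjusted p below 0.05 in limma), 0 with equal medians and without cerulein replicate 1 (637), 0 with the filter at log2 6 (335), 2 with quantile normalization (704), 15 with no filter (901), 2 with no trend (600) and 0 to 2 when arrays were left out. Changes of sign were seen for Rpl22 (-0.16 with equal medians and without cerulein replicate 1), Rplp2 (-0.0059 with equal medians, -0.12 with both), Rps18 (-0.012 and -0.21), Mup3 (-0.071 with both), Meg3 (-0.29 with equal medians, -0.21 with quantile normalization), Igf1 (0.785 by the mean of probe sets) and Enho (0.25 by that mean). Leaving out arrays gave -0.67 to 0.34 for Rap1gapos, -0.65 to 0.29 for Enho and -0.36 to 1.18 for Meg3. The cause was not tested. Of the 167 named genes 161 were called. Of these 15 kept their sign but lost the call with equal medians, and 9 did so without cerulein replicate 1. Rplp2 and Rps18, which changed sign with equal medians, lost the call there as well.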
